A study of Mus musculus with 6 samples.

Results

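The retinoic acid genes described here are 9 genes that make, bind, sense or degrade retinoic acid: *Aldh1a1*, *Aldh1a2*, *Aldh1a3*, *Rbp7*, *Crabp1*, *Crabp2*, *Rarb*, *Rxrg* and *Cyp26b1*. They were chosen by symbol from the 24421 rows of the matrix, with their measured values in these libraries known, so their levels are given as a description and no test of them is reported, although those that passed the filter on low values were part of the fit across all genes. The matrix holds bulk RNA sequencing of cells sorted from the aorta of mice, 3 libraries of the secondary heart field (SHF) lineage and 3 of the cardiac neural crest (CNC) lineage. The question of the design is how the transcriptomes of these lineages differ in the adult vessel. All mice were on the 129S6/SvEv strain, were 8 weeks old and carried the CAG-Sun1/sfGFP tracer, which labels a cell and its descendants with GFP once Cre has acted. The column names mark all 6 libraries as wild type (WT). SHF mice carried the Mef2cSHF Cre allele and CNC mice the Wnt1-Cre2 allele, so a library holds the living GFP+ cells of the aortic root and ascending aorta whose ancestors used that Cre. The tracer therefore marks ancestry and not a cell type, and several cell types enter a library.

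Retinoic acid is made inside cells from vitamin A (retinol), which is oxidized first to retinal and then, by the Aldh1a enzymes, to the acid. Small binding proteins carry retinol and retinoic acid in the cytoplasm, and Cyp26 enzymes break the acid down. Retinoic acid acts by binding RAR proteins, which sit on DNA in pairs with RXR proteins, and this signal is known for patterning the heart field and the outflow tract, from which the root and ascending aorta form.

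Levels are given in TPM, a length-adjusted transcript level scaled to the same total in each library, and are listed in the order of replicates 1, 2 and 3. TPM keeps no record of sequencing depth, and it cannot tell fewer cells of a type from less RNA per cell. Between 9255 and 11858 genes were above 0 TPM in a library. Of 2111 genes with a mean of 10 to 20 TPM, the band that holds *Aldh1a3*, *Rbp7*, *Rarb*, *Rxrg* and *Cyp26b1*, 54.7% were listed at 0 in some library, so a 0 is not read as absence. Exactly 3 libraries were at 0 for 146 of these genes. Another count of the band gave 28 genes. These were at 0 in all 3 SHF libraries, whatever the CNC values, or at 0 in the 3 CNC libraries alone. *Xist* was above 0 in SHF replicates 2 and 3 and at 0 in the other 4 libraries, whereas the Y-linked *Ddx3y* and *Eif2s3y* were above 0 in those 4 and at 0 in SHF replicates 2 and 3, so sex and lineage are partly confounded.

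The sorted cells carried fibroblast transcripts far above smooth muscle transcripts. *Dcn* lay between 11604 and 14863 TPM and *Lum* between 1866 and 3616 TPM, whereas the contractile genes *Acta2* and *Tagln* lay between 363 and 956 TPM and between 139 and 673 TPM. The summed level of 7 fibroblast markers was 15596 to 16945 TPM in SHF and 18322 to 21036 TPM in CNC libraries, and that of 7 smooth muscle markers was 859 to 2021 TPM and 810 to 1224 TPM.

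Synthesis was represented above all by *Aldh1a1*, which was the most abundant of the 9 genes in every library. *Aldh1a1* encodes a retinal dehydrogenase and lies on chromosome 19 of GRCm38, from 20492715 to 20643465. It was at 196.73, 242.60 and 92.87 TPM in SHF and at 194.13, 142.68 and 126.61 TPM in CNC libraries. The CNC values lay inside the range of the SHF values. The lineage means were 177.4 ± 76.7 TPM (SD, n = 3) in SHF and 154.5 ± 35.3 TPM (SD, n = 3) in CNC, and the difference of mean log2(TPM + 1), SHF minus CNC, was 0.11 with an SE of 0.46. By its mean over the 6 libraries *Aldh1a1* ranked 933 among all genes. Of its 31-base windows, 5.70% also occur in *Aldh1a7*, its neighbour on the chromosome, so a small part of the reads could have been shared between them.

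The other Aldh1a enzymes were low and uneven. *Aldh1a3* (chromosome 7, 66390890 to 66427517), a second retinal dehydrogenase, was at 12.35, 22.05 and 0 TPM in SHF and at 0.26, 28.16 and 1.37 TPM in CNC. Each lineage held a library above 20 TPM and a library under 1 TPM. *Aldh1a2* (chromosome 9, 71215789 to 71296243), the main retinal dehydrogenase of the embryo, was at 20.14 TPM in CNC replicate 1 and was listed at 0 in the other 5 libraries. As a share of the summed TPM of the 3 enzymes, *Aldh1a1* made up 94.1%, 91.7% and 100% in SHF and 90.5%, 83.5% and 98.9% in CNC libraries. The summed level itself was 209, 265 and 92.9 TPM in SHF and 215, 171 and 128 TPM in CNC, so the lineages overlapped in the total as well as in its makeup.

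**Figure D1:**
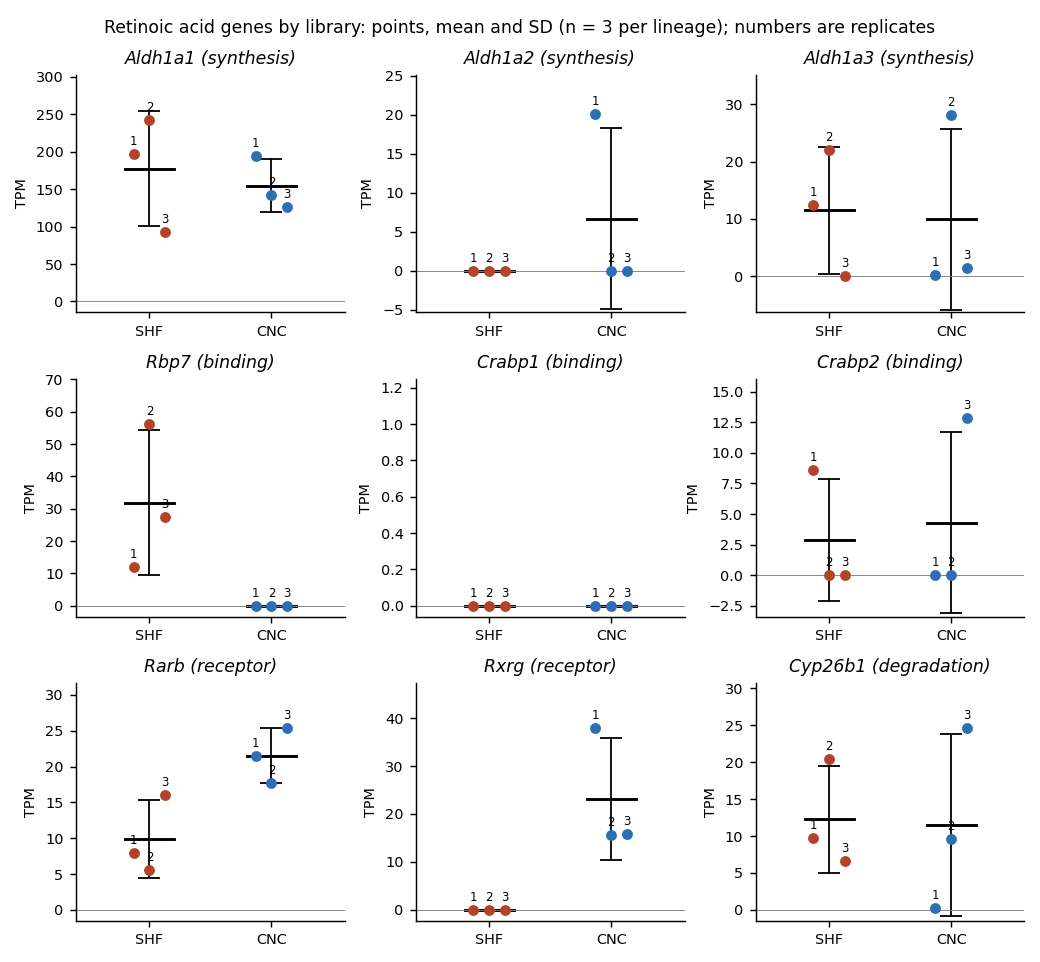
TPM of each of the 9 retinoic acid genes in the 3 SHF (red) and 3 CNC (blue) libraries; points are libraries with their replicate number, the long bar is the mean and the whiskers are 1 SD, which can reach below 0 where libraries differ widely. The lineages do not overlap for *Rbp7*, *Rarb* and *Rxrg*, and *Crabp1* is at 0 in all 6 libraries.

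Of the binding proteins, *Rbp7* was above 0 in SHF libraries only. *Rbp7* encodes a cellular retinol binding protein and lies on chromosome 4, from 149449687 to 149454978. The SHF libraries held 12.02, 56.15 and 27.42 TPM, with a mean of 31.9 ± 22.4 TPM (SD, n = 3), and all 3 CNC libraries were listed at 0. No fold change is given against a lineage listed at 0. Within the SHF libraries the highest value was in replicate 2 and the lowest in replicate 1.

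Endothelial markers moved with *Rbp7*. The summed level of 9 endothelial markers, none of them at 0 in all libraries, was 75.98, 361.06 and 493.85 TPM in SHF and 62.56, 65.84 and 27.35 TPM in CNC libraries, so it was higher in every SHF than in every CNC library. *Cdh5*, a defining endothelial cadherin, was at 5.94, 17.17 and 24.64 TPM in SHF and at 0 in all 3 CNC libraries. *Pecam1*, the most abundant marker of the list, was between 31.45 and 147.51 TPM in SHF and between 9.72 and 37.86 TPM in CNC libraries, and *Cldn5*, the next, was at 0, 126.15 and 70.87 TPM in SHF and at 0 in CNC. Single markers did not all follow. Of the 9, 3 were higher in every SHF than in every CNC library, *Cdh5*, *Tie1* and *Vwf*. *Tie1* was at 0.30 TPM and *Vwf* at 0.04 TPM in SHF replicate 1, and neither passed the filter on low values. Of all genes that passed it, 6.11% were higher in every SHF library. *Tek* was at 31.58, 0 and 57.25 TPM in SHF and at 36.71, 23.10 and 1.11 TPM in CNC. *Kdr*, *Tek* and *Flt1* were at 0 in SHF replicate 2, where *Rbp7* was highest. The 5 markers of heart muscle had a sum of 87.4 to 115.9 TPM in SHF and 0 to 22.3 TPM in CNC libraries, led by *Tnnt2* and *Actc1*, but none of the 5 alone was higher in every SHF than in every CNC library, whereas 5 adipocyte markers, led by *Fabp4* and *Plin1*, summed to 30.75 to 69.86 TPM and 0 to 47.52 TPM, with *Adipoq*, *Cidec* and *Lep* at 0 in all 6 libraries. The part of these cells in the *Rbp7* values was not tested.

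The cellular retinoic acid binding proteins were listed at 0 in most libraries. *Crabp1* (chromosome 9, 54764748 to 54773110) was listed at 0 in all 6 libraries. *Crabp2* (chromosome 3, 87948666 to 87953376), which carries retinoic acid to the nucleus, was at 8.60 TPM in the first SHF library and at 12.85 TPM in the last CNC library and was listed at 0 in the other 4. Its difference of mean log2(TPM + 1) was -0.18 with an SE of 1.67. Neither passed the filter of at least 1 TPM in at least 3 libraries.

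Both receptor genes among the 9 were higher in CNC libraries. *Rarb* encodes RAR beta, a receptor that is itself switched on by retinoic acid, and lies on the minus strand of chromosome 14, from 16430839 to 16819156. It was at 7.92, 5.63 and 16.06 TPM in SHF and at 21.48, 17.71 and 25.34 TPM in CNC libraries. Every CNC library was above every SHF library, although the nearest pair, SHF replicate 3 at 16.06 TPM and CNC replicate 2 at 17.71 TPM, lay close together. The means were 9.87 ± 5.48 TPM (SD, n = 3) in SHF and 21.5 ± 3.82 TPM (SD, n = 3) in CNC, and the difference of mean log2(TPM + 1) was -1.15 with an SE of 0.43.

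The level of *Rarb* is uncertain because it shares exons with a neighbour. Of its 5265 exonic bases, 34.1% lie within exons of *Top2b*, a DNA topoisomerase gene on the opposite strand, and the library protocol does not mark strand. *Top2b* was at 45.56, 18.86 and 17.82 TPM in SHF and at 11.67, 13.58 and 51.60 TPM in CNC libraries. Its lineages overlapped, and *Rarb* was at 21.48 TPM in the CNC library with the lowest *Top2b* and at 25.34 TPM in that with the highest. The antisense gene *Gm48162* also overlaps *Rarb* exons, and the part of either gene in the *Rarb* values was not tested.

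*Rxrg* was above 0 in CNC libraries only. It encodes RXR gamma, a partner of the RAR proteins, and lies on chromosome 1, from 167598384 to 167639623. *Rxrg* was listed at 0 in all 3 SHF libraries and was at 37.87, 15.69 and 15.79 TPM in the CNC libraries, with a mean of 23.1 ± 12.8 TPM (SD, n = 3). CNC replicates 2 and 3 were nearly equal and replicate 1 was the highest. In SHF replicate 1, the SHF library without *Xist*, *Rxrg* was at 0, *Rarb* was at 7.92 TPM and *Rbp7* was at 12.02 TPM. The part of sex in these values was not tested.

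Markers of Schwann cells and other glia, a cell type that the neural crest also gives rise to, moved with *Rxrg*. The summed level of 7 such markers was 9.27, 1.5 and 15.97 TPM in SHF and 21.43, 66.27 and 34.09 TPM in CNC libraries, without overlap. *S100b*, a calcium binding protein of glia, was between 1.5 and 15.32 TPM in SHF and between 1.73 and 19.31 TPM in CNC libraries. The crest and glial precursor gene *Foxd3* was at 0 in all 6 libraries, and *Sox10* was at 0 in SHF and in the first CNC library, with 2.81 and 4.81 TPM in the other CNC libraries. CNC replicate 1, with the highest *Rxrg*, thus had the lowest summed glial level of the CNC libraries and no *Sox10*. The fibroblast sum was also higher in every CNC than in every SHF library. Within CNC it was lowest in replicate 1, where *Rxrg* was highest, and highest in replicate 2, where *Rarb* was lowest. Of the 7 fibroblast markers, 3 were higher in every CNC library, beside 5.68% of all genes tested, and the rest overlapped. The part of either cell type in the receptor values was not tested.

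The makeup of the receptor transcripts overlapped between the lineages for RAR and not for RXR. The summed TPM of *Rara*, *Rarb* and *Rarg* was 89.0, 43.5 and 49.5 in SHF and 165.3, 49.4 and 113.5 in CNC libraries. *Rarb* supplied 8.90%, 12.9% and 32.5% of that sum in SHF and 13.0%, 35.8% and 22.3% in CNC libraries, so its share overlapped where its level did not. The summed TPM of *Rxra*, *Rxrb* and *Rxrg* was 7.50, 1.68 and 22.1 in SHF and 61.8, 15.9 and 36.8 in CNC libraries. *Rxrg* supplied 61.3%, 98.5% and 42.9% of it in the CNC libraries, whereas in SHF libraries all RXR transcripts came from *Rxra*. *Rxrb* came nearest to the pattern of *Rxrg*, at 0 in SHF and at 6.88, 0.24 and 18.95 TPM in CNC libraries, and did not reach 5 TPM in CNC replicate 2.

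**Figure D2:**
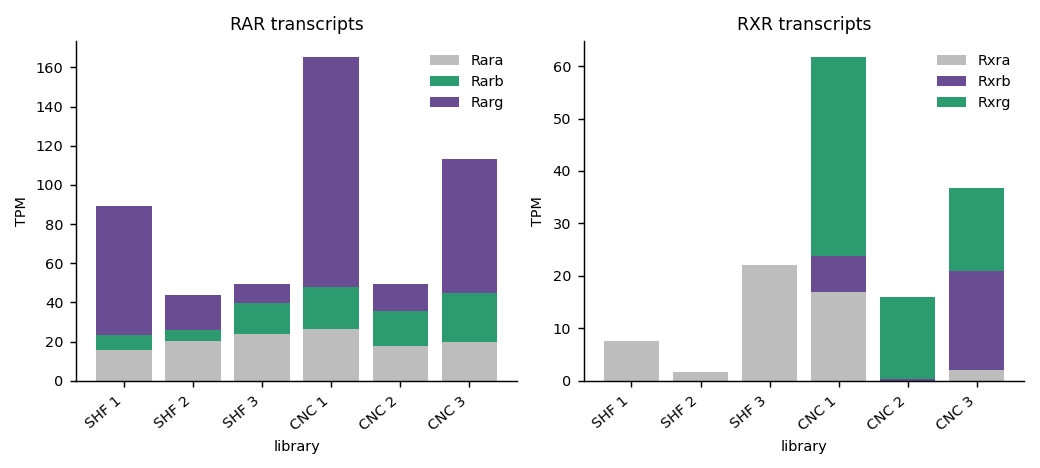
Stacked TPM of the 3 RAR genes (left) and the 3 RXR genes (right) in each library, with *Rarb* and *Rxrg* in green; no error bars are drawn because each bar is 1 library. *Rxrg* makes up 42.9% to 98.5% of RXR transcripts in CNC libraries and 0% in SHF libraries, and *Rarb* is present in all 6.

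The sequence before the start of these genes is shown because *Rarb* is a classical direct target of retinoic acid. RAR and RXR pairs bind direct repeats of a 6-base core, and the repeats are named DR1, DR2 and DR5 by the bases between the cores. Both strands of the 250 bases before each start in RefSeq on GRCm38.p6 were searched for DR1, DR2 and DR5, with the core AGGTCA or a variant of it with G at position 1 or T at position 3, and for AGGTCA alone, which can also lie within a repeat. Of the 9 genes, 7 had an entry, and *Aldh1a3* and *Crabp2* had none. Among all 32851 promoter entries DR5 was in 0.0883%, DR1 in 0.164%, DR2 in 0.174% and the core alone in 14.0%. The 9 entries of the retinoic acid genes and the 48 entries of 32 other pathway genes held DR5 in *Rarb* and in *Cyp26a1*, the gene of another enzyme that degrades retinoic acid, and in no other. The DR5 of *Rarb*, in the window chr14:16575477-16575726 on the minus strand, begins 53 bases and ends 37 bases before an inner start within the annotated gene, and that of *Cyp26a1*, in the window chr19:37697558-37697807 on the plus strand, reads on the opposite strand and spans 32 to 16 bases before the start. The inner start of *Rxrg*, with the window chr1:167618015-167618264 on the plus strand, has a single core 88 to 83 bases before it, the outer start of *Rxrg*, with the window chr1:167598112-167598361, has none of these motifs and is not printed, and *Rbp7*, with the window chr4:149454969-149455218 on the minus strand, also has none. The windows are printed 5′ to 3′ on the strand of the gene for 1 start of each of the 3 genes whose lineages did not overlap and for *Cyp26a1*, and capitals mark the match.
Rarb: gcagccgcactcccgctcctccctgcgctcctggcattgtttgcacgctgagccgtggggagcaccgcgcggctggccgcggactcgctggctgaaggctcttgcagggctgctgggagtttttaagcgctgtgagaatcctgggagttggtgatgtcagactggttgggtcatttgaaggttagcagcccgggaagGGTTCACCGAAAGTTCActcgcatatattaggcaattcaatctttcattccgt
Cyp26a1: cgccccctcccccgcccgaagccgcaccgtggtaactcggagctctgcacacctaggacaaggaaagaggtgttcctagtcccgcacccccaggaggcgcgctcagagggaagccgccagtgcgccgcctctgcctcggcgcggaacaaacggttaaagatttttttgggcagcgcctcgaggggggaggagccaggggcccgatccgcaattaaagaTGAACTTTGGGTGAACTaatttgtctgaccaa
Rxrg: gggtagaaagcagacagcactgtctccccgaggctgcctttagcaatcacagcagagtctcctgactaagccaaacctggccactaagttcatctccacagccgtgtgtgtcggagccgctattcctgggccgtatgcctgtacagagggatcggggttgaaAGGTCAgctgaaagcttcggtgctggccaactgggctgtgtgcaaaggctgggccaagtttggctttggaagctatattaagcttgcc
Rbp7: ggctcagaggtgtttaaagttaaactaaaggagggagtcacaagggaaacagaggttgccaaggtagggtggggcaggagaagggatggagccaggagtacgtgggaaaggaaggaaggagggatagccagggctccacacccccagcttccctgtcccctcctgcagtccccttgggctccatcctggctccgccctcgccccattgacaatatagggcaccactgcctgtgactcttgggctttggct
A match is a description of the letters in the window and not evidence of binding in these cells. The genes with the DR5 did not share a pattern across libraries, since *Rarb* was higher in CNC libraries and *Cyp26a1* was at 9.51, 32.25 and 16.42 TPM in SHF and at 11.67, 6.58 and 0 TPM in CNC libraries.

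Degradation was represented by *Cyp26b1* (chromosome 6, 84571414 to 84593908), a retinoic acid hydroxylase. It was at 9.76, 20.44 and 6.63 TPM in SHF and at 0.27, 9.64 and 24.58 TPM in CNC libraries. The SHF values lay inside the range of the CNC values, and the difference of mean log2(TPM + 1) was 0.78 with an SE of 1.36. With *Cyp26a1* and *Cyp26c1*, of which the latter was at 0 in all libraries, the Cyp26 transcripts summed to 19.3, 52.7 and 23.1 TPM in SHF and to 11.9, 16.2 and 24.6 TPM in CNC libraries. In every library the synthesis transcripts exceeded the degradation transcripts, and the summed TPM of the 3 Aldh1a genes was 4.03 to 18.0 times that of the Cyp26 genes.

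Read by level over the 6 libraries, the order of the 9 genes was *Aldh1a1*, at a mean of 165.9 TPM, then *Rbp7* (15.9), *Rarb* (15.7), *Cyp26b1* (11.9), *Rxrg* (11.6), *Aldh1a3* (10.7), *Crabp2* (3.58), *Aldh1a2* (3.36) and *Crabp1* (0). Only *Aldh1a1* and *Rbp7*, of the neighbours in that order, had ranges that did not overlap. *Aldh1a1*, *Rarb* and *Cyp26b1* were above 0 in all 6 libraries. In all, 6 of the 9 passed the filter, and *Rbp7* and *Rxrg* passed it only through the lineage in which they were above 0.

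Libraries of the lineages did not overlap for 3 of the 9 genes, *Rbp7* with SHF higher and *Rarb* and *Rxrg* with CNC higher. Over the 10185 genes that passed the filter, 11.8% did not overlap, 6.11% with SHF higher and 5.68% with CNC higher. *Rbp7* and *Rxrg* were also above 5 TPM in each library of a lineage and at 0 in each of the other, a pattern that 0.134% of the 14179 genes above 0 in any library showed for SHF and 0.106% for CNC. Among the 9 genes, the lowest value with which the pattern was met was that of *Rbp7* in SHF replicate 1, 12.02 TPM. Outside the 9, *Rxrb*, at 0 in SHF, failed it with 0.24 TPM in CNC replicate 2. The 9 genes were chosen with these values known, so nothing is read from the counts. Without the SHF libraries with *Xist*, leaving SHF replicate 1, the genes without overlap were these 3 and *Aldh1a1*, beside 43.5% of all genes tested, and without SHF replicate 3 they were the same 4, beside 21.2%.

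The other genes of the pathway, 48 in 6 lists, were used to place the 9 in context. limma called none of the 32 tested genes, beside 0% of the 10185 genes tested, at an adjusted p threshold of 0.05 with Benjamini-Hochberg adjustment, and 2 of the 32 and 597 of all genes had an unadjusted p under 0.05. Their median difference of mean log2(TPM + 1) was 0.01, beside 0.02 over all genes tested. The lineages did not overlap for 4 of the 32 (12.5%), a share near the 11.8% of all genes. The limma adjusted p of the 32 genes lay between 0.625 and 0.998.

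Both genes with an unadjusted p under 0.05 act one step ahead of the Aldh1a enzymes. *Rdh10*, the main enzyme that oxidizes retinol to retinal in the embryo, was at 0, 0 and 2.66 TPM in SHF and at 67.05, 11.42 and 31.52 TPM in CNC libraries. The difference was -4.29 on the log2(TPM + 1) scale with an SE of 1.29 (limma adjusted p = 0.625), and every CNC library was above every SHF library. *Rdh5*, a retinol dehydrogenase best known from the eye, was at 4.76, 0 and 0 TPM in SHF and at 7.24, 19.99 and 11.83 TPM in CNC libraries (limma adjusted p = 0.820). *Rdh5* shares exons with *Bloc1s1*, so its reads are uncertain. Neither passed the threshold. For *Aldh1a1*, which acts on their product, the lineages overlapped. Of the 11 genes that interconvert retinol and retinal, 7 were tested and 3 were at 0 throughout. The most abundant were *Dhrs3*, which returns retinal to retinol, at 352.24 to 764.01 TPM, and *Adh1*, an alcohol dehydrogenase, at 17.17 to 208.59 TPM, and for both the lineages overlapped. Exons of *Adh1* overlap an antisense gene, so its level is uncertain too.

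**Figure D3:**
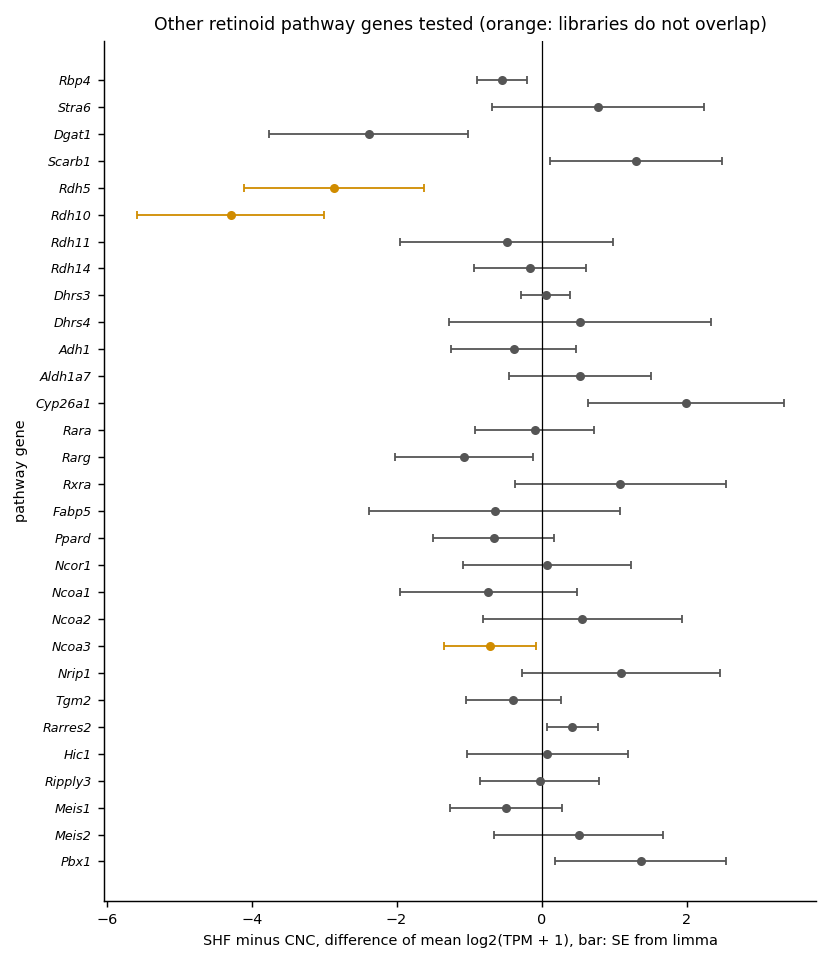
SHF minus CNC difference of mean log2(TPM + 1) for 30 of the 32 other pathway genes tested (points) with the SE from limma (bars); orange marks the genes whose 3 SHF and 3 CNC libraries do not overlap. *Rdh10* and *Rdh5* lie farthest from 0, and no gene tested passed the adjusted p threshold of 0.05.

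In uptake and storage, 5 of 9 genes were tested and 2 were at 0 throughout. *Rbp4*, the retinol carrier of blood, was at 447.31 to 1246.99 TPM, and the lineages overlapped. Of the 4 other dehydrogenases and hydroxylases, *Cyp26a1* and *Aldh1a7* were tested. *Cyp26a1* had a difference of 2.00 (SE 1.35, limma adjusted p = 0.880) and *Aldh1a7* was at 0 to 7.52 TPM.

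Among the other receptors and *Fabp5*, a fatty acid binding protein that also binds retinoic acid, 5 of 6 were tested and none of these 5 had lineages without overlap. *Rxrb*, given above with CNC higher, did not pass the filter. *Rarg* ranged from 9.62 TPM in SHF replicate 3 to 117.49 TPM in CNC replicate 1, and *Rara* stayed between 15.58 and 26.36 TPM. *Rarb* was thus the only RAR gene whose lineages did not overlap, but its difference was not tested against those of *Rara* and *Rarg*. All 6 coregulators were tested. The coactivator *Ncoa3* was higher in every CNC library, at 18.15, 33.94 and 38.64 TPM in SHF and 45.60, 59.33 and 40.28 TPM in CNC (limma adjusted p = 0.896). Exons of *Ncoa3* overlap *Sulf2*, so its level is uncertain.

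Of the 12 genes known to respond to retinoic acid, 7 were tested and none was without overlap. *Rarres2*, the gene of chemerin, was at 337.64 to 854.62 TPM and *Tgm2*, a transglutaminase, at 21.69 to 114.70 TPM. Exons of *Rarres2* and of *Tgm2* overlap genes on the opposite strand, so their levels are uncertain. The lineages overlapped for both, and the list had a median difference of 0.08.

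**Figure D4:**
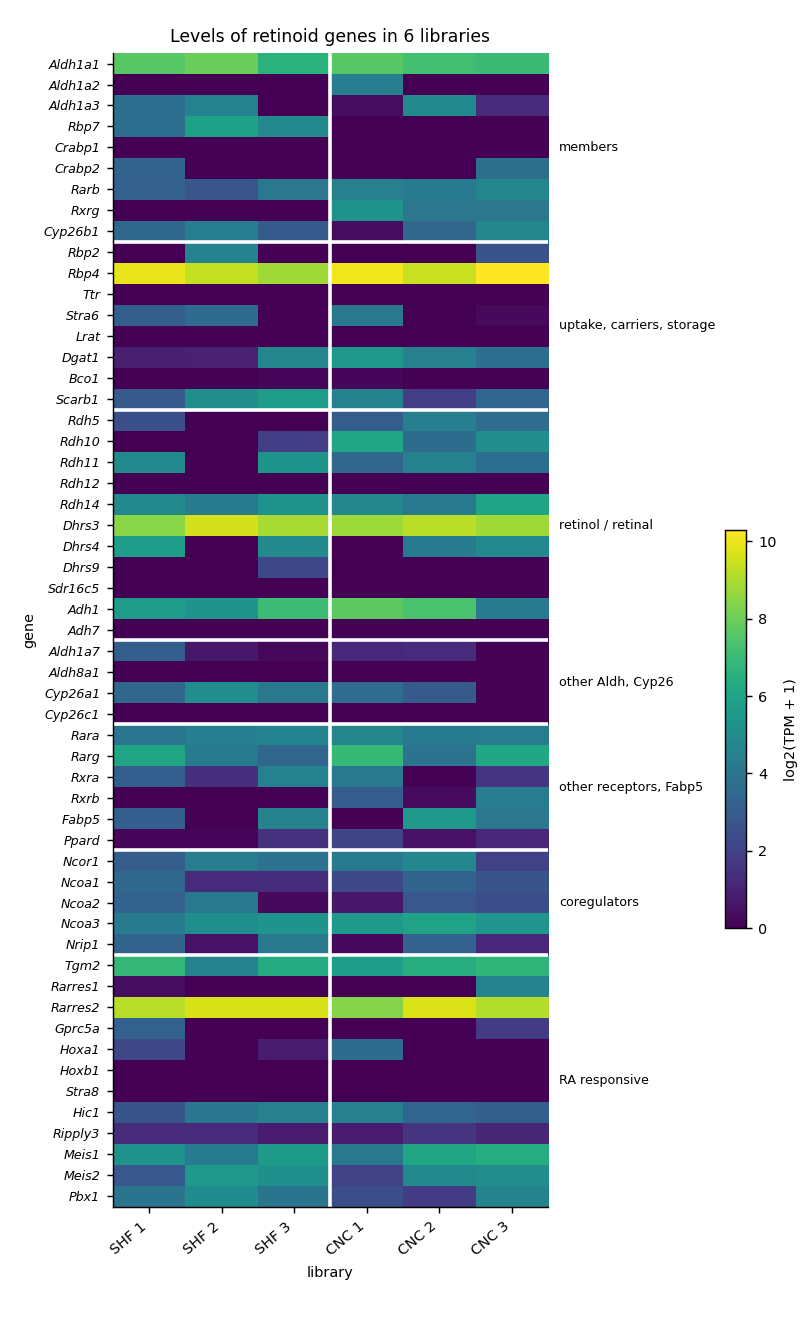
Level, as log2(TPM + 1), of the 9 retinoic acid genes and 46 of the 48 other pathway genes (rows, by list) in the 6 libraries (columns); dark purple is 0. *Aldh1a1*, *Rbp4*, *Dhrs3* and *Rarres2* are high in all 6 libraries, and *Rbp7* and *Rxrg* are dark in the CNC and SHF libraries respectively.

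Genes with the most similar profile were found for the 4 of the 9 that were above 0 in at least 4 libraries, as the smallest root mean square difference of centred log2(TPM + 1) over the 6 libraries. For *Aldh1a1* these were *Platr17* at 0.13 and *Ccdc124* at 0.17, and for *Rarb* they were *Sgk3* at 0.17 and *Ogn* at 0.18. *Ogn*, a small leucine-rich proteoglycan gene, was at 490.29, 295.00 and 744.82 TPM in SHF and at 966.56, 1024.69 and 1033.84 TPM in CNC libraries. For *Cyp26b1* they were *Sympk* at 0.25 and *Phka2* at 0.27, and for *Aldh1a3* they were *Synj2* and *Hif1an*, both at 0.44 and so less alike. These likenesses are given as values only.

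The remaining marker lists did not divide the lineages. The 8 mesothelial and epicardial markers, of which *Msln*, *Upk1b*, *Lrrn4* and *Bnc1* were at 0 throughout, summed to 0 to 73.35 TPM in SHF and 2.45 to 10.66 TPM in CNC libraries, with *Krt19* and *Upk3b* highest in SHF replicate 3. SHF replicate 3 was also the lowest for *Aldh1a1*. The 5 leukocyte markers summed to 0 to 36.4 TPM in SHF and 7.96 to 84.7 TPM in CNC libraries, with *Lyz2* and *Cd68* the most abundant and *Ptprc* at 0 throughout. Of 5 melanocyte markers, only *Tyr* was above 0, at 8.68 to 24.01 TPM.

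**Figure D5:**
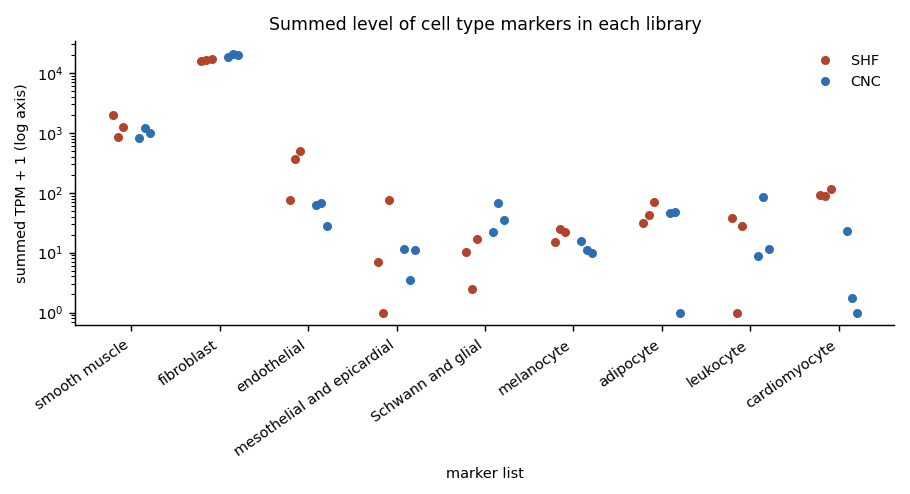
Summed TPM plus 1 (log axis) of each marker list in the 3 SHF (red) and 3 CNC (blue) libraries. The endothelial and cardiomyocyte sums are higher in every SHF library, and the fibroblast and glial sums are higher in every CNC library.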

How the data were processed

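RNA of sorted PI-negative GFP+ cells, freed from the vessel with collagenase II, elastase and DNase I, was amplified by the authors with SmartSeq2, which uses no molecular identifiers and does not mark strand. The submitters' processing notes name Bowtie2 and RSEM 1.2.25 and the build mm10, and the authors deposited TPM per gene. The annotation is not given in the sources used here. Because TPM has a fixed total of 1000000 per library, the depth cannot be known, and intervals and floors were not computed. Amplification from little RNA can leave an expressed gene at 0, and RSEM divides reads among similar sequences. Names of 27 rows are dates, as spreadsheets make from symbols. All 6 sample columns were used, and replicate numbers are those of the labels. The study calls the 3 libraries of a lineage biological replicates and does not say whether each came from 1 mouse or a pool.

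The test of pathway genes was that of limma 3.58.1 under R 4.3.3 (eBayes, trend on), as SHF minus CNC of log2(TPM + 1). The 10185 genes tested reached 1 TPM in 3 or more of the 6 libraries, with Benjamini-Hochberg adjustment over all of them. Fold changes on this scale understate those of low genes. The fit was tested on simulated data. For the 9 genes, SEs come from the 3 libraries of each lineage. The 9 genes and all lists were chosen with earlier results of these data known. The genes named are the 9, the 2 most abundant of each pathway and marker list, pathway genes called or without overlap, and the 2 genes most like each of the 4 of the 9 that were above 0 in at least 4 libraries. Some of these are not reported here. The sex-linked genes, *Top2b*, *Gm48162*, *Bloc1s1*, *Sulf2*, *Rxrb*, *Cyp26c1*, *Cdh5*, *Tie1*, *Vwf*, *Tek*, *Kdr*, *Flt1*, *Sox10*, *Gm13305* and markers at 0 were named after their values were seen. Positions and exon overlaps are from GENCODE M21 on GRCm38 and promoter windows from RefSeq on GRCm38.p6. The alternatives were pseudocounts of 0.1 and 5, no filter or a filter of 5 TPM, eBayes without a trend, quantile normalization, median-of-ratios rescaling, a replicate block, other thresholds for the exclusive pattern and each library left out in turn. Omitting both SHF libraries with *Xist* was added after the data were seen. Python 3.11.15, pandas 2.3.3, numpy 2.4.6 and matplotlib 3.10.9 were used.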

Additional observations from a re-analysis of the deposited data

How the results depend on the processing

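The count of genes called by limma was 0 under every alternative except a pseudocount of 5, which called 1 gene, *Gm13305*, and no pathway gene was called under any. The count without overlap was 1200 genes, lay between 2052 and 2547 when 1 library was left out and was 4435 without the SHF libraries with *Xist*; each library adds a requirement, so fewer libraries leave more genes. The median difference of the pathway list, 0.01, lay between -0.09 and 0.06 under other settings and between -0.19 and 0.06 with 1 library left out, less than the spread between libraries. The exclusive pattern held for *Rbp7* and *Rxrg* at a threshold of 10 TPM and after rescaling, which keeps zeros at 0. The other alternatives only relax the rule and could not end it. With 1 library left out, the difference of *Rarb* lay between -1.54 and -0.85 and that of *Aldh1a1* between -0.17 and 0.52, of *Aldh1a3* between -0.30 and 1.98, of *Crabp2* between -1.26 and 1.09 and of *Cyp26b1* between -0.45 and 1.72, so the last 4 changed sign. The replicate block left 0 genes called, with 549 at an unadjusted p under 0.05, and the pathway median at 0.01. Samples with the same number had correlations of deviations between -0.0113 and -0.00438, so the numbers share only a name and no pairing was used. Depth is unknown, so values of 0 are not limits.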
